A study of Rattus norvegicus with 12 samples.

Results

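The regions described here are small extrachromosomal circular DNAs (eccDNA) that the deposited annotation places within 2 kb upstream of a gene, in rat back skin with and without irradiation. They were taken as the listed eccDNA of the upstream type that were shorter than 1000 bp, which gave 3836 circles of 228353. Another 37 upstream circles were 1000 bp or longer and were not counted as members. Members just under the limit, upstream of Tshz2 and Il3ra, measured 987 and 978 bp, and the 3 shortest circles over the limit measured 1003, 1004 and 1023 bp.

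The 12 libraries came from back skin of wild-type SD rats and were made by Circle-seq, in which linear DNA is digested away and the remaining circles are sequenced. The 4 control libraries came from skin that received no treatment. The 4 libraries called 5 Gy x2 came from skin given 2 weekly electron beam fractions of 5 Gy, and the 4 called 5 Gy x4 from skin given 4 such fractions, both sampled on day 7 after the last one. The labels do not give the sampling time of control skin, and the larger dose was also sampled later in the schedule, so dose and time cannot be told apart. Whether each library is a different animal is not in the labels, so p-values measure only how far these libraries spread, which may be technical. Whole back skin holds many cell types, and more circles per cell and more cells that carry circles cannot be told apart.

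Small eccDNA are found in normal tissues and often have lengths close to that of DNA wound around 1 or more nucleosomes. The stretch just upstream of a gene usually holds its promoter, where transcription factors bind and nucleosomes are displaced or moved in active genes. Circles of this size are too short to carry most genes with their promoters, and an upstream circle is described here only by its position. The annotation places each circle in 1 class (exon, intron, upstream, downstream or between genes), and the order in which the classes were given is not stated in the sources used here.

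The start regions of 3 genes whose upstream circles recurred are shown first, because these circles had the most reads among the recurrent circles of genes for which a promoter sequence was at hand. They are RefSeq sequences of the build GRCr8, each from 250 bases before to 50 bases after the gene's start, written 5′ to 3′ on the gene's strand. The circles were mapped to the build rn6, so whether a circle covers the letters shown is not known. Capitals mark matches on either strand to a TATA box (TATAAA), to a GC box (GGGCGG) or to a CCAAT box, which reads ATTGG where the match lies on the opposite strand. Cers3 lies on the plus strand (chr1:129748322-129748621), Fmod on the plus strand (chr13:48045317-48045616) and Cbr4 on the minus strand (chr16:33656523-33656822).
Cers3: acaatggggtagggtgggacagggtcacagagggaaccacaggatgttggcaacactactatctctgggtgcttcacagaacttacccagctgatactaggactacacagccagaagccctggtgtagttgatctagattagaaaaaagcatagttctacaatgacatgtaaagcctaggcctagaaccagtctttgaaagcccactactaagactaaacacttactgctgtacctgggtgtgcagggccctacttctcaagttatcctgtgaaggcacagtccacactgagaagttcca
Fmod: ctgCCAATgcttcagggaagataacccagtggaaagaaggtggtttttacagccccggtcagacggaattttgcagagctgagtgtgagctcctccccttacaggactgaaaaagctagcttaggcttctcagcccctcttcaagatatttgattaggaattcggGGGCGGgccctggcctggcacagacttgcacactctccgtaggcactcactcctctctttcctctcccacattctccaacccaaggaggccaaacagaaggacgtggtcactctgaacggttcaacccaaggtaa
Cbr4: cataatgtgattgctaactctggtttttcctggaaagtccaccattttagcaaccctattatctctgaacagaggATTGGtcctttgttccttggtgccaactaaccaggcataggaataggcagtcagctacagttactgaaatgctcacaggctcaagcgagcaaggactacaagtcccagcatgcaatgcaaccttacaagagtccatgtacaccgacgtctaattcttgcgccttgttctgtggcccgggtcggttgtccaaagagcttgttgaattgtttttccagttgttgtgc
The Cers3 window held no match to any of the 3 motifs and no CG dinucleotide, with a GC content of 47.7%. The Fmod window held 1 GC box and 1 CCAAT match, 7 CG dinucleotides and a GC content of 52.7%. The Cbr4 window held 1 CCAAT match, 6 CG dinucleotides and a GC content of 46.3%. Among all 27457 promoters of the table, 14.3% held the TATA box, 34.9% the GC box and 37.7% the CCAAT box.

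Circles were counted as present in a library when they had at least 1 supporting read, a split read or a discordant pair that spans the junction of the circle. The libraries held 34499 to 397674 supporting reads over all listed eccDNA, or 35525 to 404815 with counted entries outside that list. Their total sequencing depth is unknown. The reads carry no molecular identifiers, so intervals given for shares cover counting error only. Of the 3836 upstream circles, 3688 (96.1%) were found in 1 library, 148 in 2 or more and 14 in 4 or more. Among all other circles under 1000 bp, 96.3% were found in 1 library. A single read supported 740 upstream circles (19.3%, against 19.4% of the others), and 3490 (91.0%) were supported by split reads alone, against 91.1% of the others. The tables label 1059 upstream circles hconf, 600 conf and 2177 lconf without defining the labels. The hconf share was 27.6% in upstream circles and 26.5% in the others. The upstream circles thus lay close to the other small circles in recurrence, support and label.

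Upstream circles were more numerous, on average, after irradiation. They numbered 101, 160, 177 and 67 in control replicates 1 to 4, a mean of 126 ± 51.2 (SD, n = 4). The 5 Gy x2 libraries had 329, 473, 454 and 97, and the 5 Gy x4 libraries 358, 735, 738 and 357. All 4 libraries of 5 Gy x4 lay above all 4 control libraries, whereas 5 Gy x2 replicate 4 lay inside the control range. The mean of 5 Gy x4 was 547 ± 219, 4.33 times that of control (two-sided exact permutation p = 0.0286, adjusted p = 0.0857 over 18 tests). Against control, the mean of 5 Gy x2, 338 ± 173, came to 2.68-fold (exact p = 0.114 and adjusted p = 0.206). The irradiated groups, 1.62-fold apart, overlapped (exact p = 0.229). All circles under 1000 bp were more numerous too, so the higher number is not particular to upstream circles. They numbered 4501, 9033, 9999 and 3300 in control and 21777, 44235, 45500 and 19849 in 5 Gy x4. In 5 Gy x2 they numbered 18682, 28033, 27154 and 6104. The smallest exact p that 4 libraries against 4 allow is 0.0286, and no measure of this family passed an adjusted threshold of 0.05. When every library was drawn down to 34499 supporting reads, the means were 105 ± 32.3, 209 ± 84.0 and 272 ± 57.1, and 5 Gy x4 was 2.59-fold control (exact p = 0.0286). Divided by supporting reads, 5 Gy x4 no longer exceeded control beyond the spread (exact p = 0.343).

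**Figure D1:**
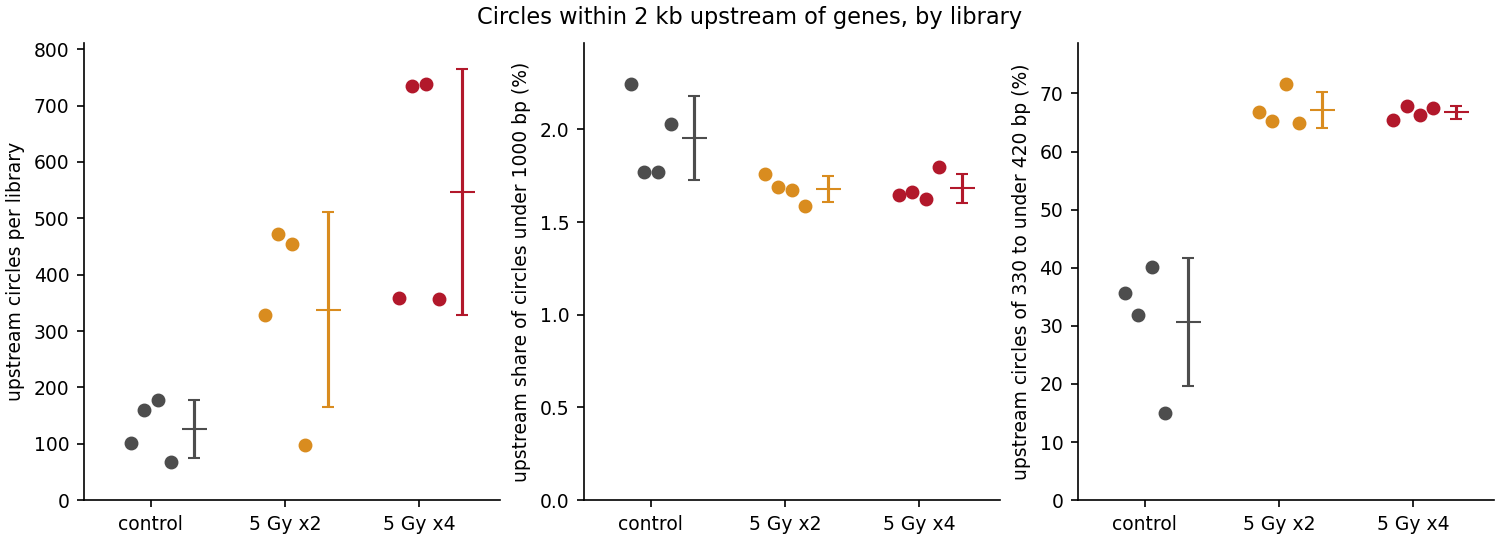
Number of upstream circles (left), upstream share of all circles under 1000 bp in percent (middle) and share of upstream circles of 330 to under 420 bp in percent (right), 1 point per library, with the group mean and SD beside the points (n = 4). The 5 Gy x4 libraries lie between 357 and 738 circles, above the 67 to 177 of control, and both irradiated groups lie above control in the right panel.

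As a share of all circles under 1000 bp, upstream circles were slightly rarer in irradiated skin. The share was 2.24%, 1.77%, 1.77% and 2.03% in control replicates 1 to 4, a mean of 1.95% ± 0.229 (SD, n = 4). It was 1.76%, 1.69%, 1.67% and 1.59% in the 5 Gy x2 libraries and 1.64%, 1.66%, 1.62% and 1.80% in the 5 Gy x4 libraries. Every 5 Gy x2 library lay below every control library, by a narrow margin, while 5 Gy x4 replicate 4 lay inside the control range. The mean difference was -0.277 percentage points for 5 Gy x2 (exact permutation p = 0.0286, adjusted p = 0.0857) and -0.272 for 5 Gy x4 (exact p = 0.0857, adjusted p = 0.206). Without control replicate 1, the highest library, the difference of 5 Gy x2 was -0.18 (exact p = 0.0571, the smallest that 3 libraries against 4 allow). The 95% Wilson interval of the share ran from 1.60% to 2.57% in control replicate 4, which had fewest upstream circles, and from 1.51% to 1.74% in 5 Gy x4 replicate 3, which had most. With the circles of each library weighted to 1 common mix of 20 length bins, the difference of 5 Gy x2 from control was -0.118 points (exact p = 0.686). The call was also lost at about the same size at 2 or more reads (-0.279, exact p = 0.0571) and with reads drawn down (-0.287, exact p = 0.0571). Within the class of 330 to under 420 bp it was -0.106 (exact p = 0.83), and among circles of other lengths -0.322 (exact p = 0.0857). For 5 Gy x4 among circles of other lengths it was -0.297 (exact p = 0.0286), with the groups apart. Of supporting reads on small circles, upstream circles took 1.76% ± 0.328 (control), 1.54% ± 0.125 (5 Gy x2) and 1.60% ± 0.146 (5 Gy x4), and neither irradiated group differed from control beyond the spread (exact p = 0.286 and 0.514).

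The upstream circles of irradiated skin were longer, with a larger part of them in 1 length class. The share of upstream circles of 330 to under 420 bp was 35.6%, 31.9%, 40.1% and 14.9% in the control libraries. It was 66.9%, 65.3%, 71.6% and 64.9% in the 5 Gy x2 libraries and 65.4%, 67.8%, 66.3% and 67.5% in the 5 Gy x4 libraries. The irradiated libraries lay close together and above all control libraries, and control replicate 4 was the lowest. The control mean was 30.6% ± 11.0, that of 5 Gy x2 67.2% ± 3.05 and that of 5 Gy x4 66.7% ± 1.12 (SD, n = 4; exact permutation p = 0.0286 and adjusted p = 0.0857 for each against control). The median length per library averaged 314 ± 23.8 bp for control, 358 ± 2.87 bp for 5 Gy x2 and 359.5 ± 2.38 bp for 5 Gy x4 (exact p = 0.0286 and adjusted p = 0.0857 for each against control). Other small circles showed the same order, with 34.0% ± 12.01 (control), 68.0% ± 3.56 (5 Gy x2) and 68.1% ± 2.38 (5 Gy x4) in this length class. The 2 irradiated groups differed by less than the spread between libraries in both measures.

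In numbers, the class of 330 to under 420 bp held most of the difference. Control had 42 ± 25.7 upstream circles of that class per library, 5 Gy x2 had 229 ± 120 and 5 Gy x4 had 366 ± 148. The mean of 5 Gy x4 was 8.70-fold control (exact permutation p = 0.0286, adjusted p = 0.0935 over 36 further tests, none of which passed 0.05 after adjustment) and that of 5 Gy x2 5.46-fold (exact p = 0.0571). Upstream circles of all other lengths came to 84.3 ± 27.1, 109 ± 54.9 and 182 ± 71.3, and 5 Gy x4 was 2.15-fold control (exact p = 0.0286, adjusted p = 0.0935). Circles of 150 to under 250 bp came to 33.3 ± 18.3, 45.5 ± 20.4 and 90.8 ± 35.7, 2.73-fold control in 5 Gy x4 (exact p = 0.0286, adjusted p = 0.0935). Circles under 150 bp did not follow this order: control had 10.5 ± 2.08, 5 Gy x2 had 9.5 ± 3.87 and 5 Gy x4 had 6 ± 2.94, with exact p = 0.771 and 0.0857 against control. Other small circles went the same way in 5 Gy x4, so these differences are not particular to upstream circles. With the 4 libraries of a group pooled, the 10 bp from 350 bp held 28 upstream and 1664 other circles in control. In 5 Gy x4 they held 242 and 15255. The 10 bp from 200 bp held 30 and 1153 in control and 76 and 4842 in 5 Gy x4. The 10 bp from 130 bp held 9 and 362 in control and 3 and 259 in 5 Gy x4. The shortest upstream circle measured 8 bp and was listed in 5 Gy x2 skin.

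**Figure D2:**
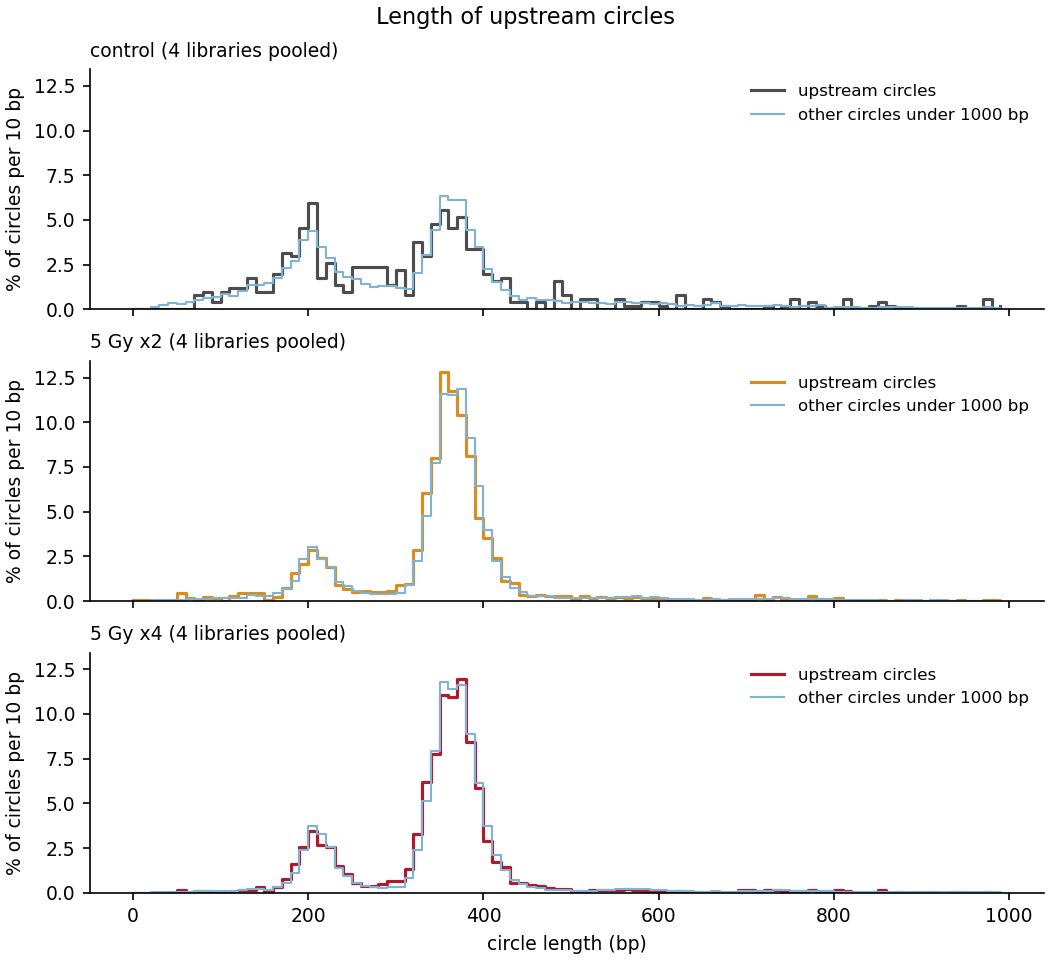
Length of upstream circles (dark or coloured line) and of all other circles under 1000 bp (light blue line) in percent per 10 bp of length, with the 4 libraries of a group pooled. Control upstream circles spread over a peak near 200 bp and a second near 360 bp, and both irradiated groups have most of their circles in the second peak.

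Within the same library, upstream circles were close in length to the other small circles. Averaged over the 12 libraries, 54.9% of upstream circles and 56.7% of the others fell in the class of 330 to under 420 bp, and the share was lower for upstream circles in 8 of 12 libraries (difference -1.85 points, exact sign-flip permutation p = 0.0566, adjusted p = 0.113 over 4 tests). The median length of upstream circles differed from that of the others by -6.13 bp on average and was lower in 10 of 12 libraries (exact sign-flip permutation p = 0.0449, adjusted p = 0.113). The difference was -13.2 ± 18.0 bp in control libraries, -3.88 ± 1.55 in 5 Gy x2 and -1.25 ± 1.5 in 5 Gy x4 (SD, n = 4). Without control replicate 2, where it was -35 bp, the mean was -3.5 bp (exact permutation p = 0.0898), and leaving out any 1 library other than control replicate 4 or 5 Gy x4 replicate 4 took the p above 0.05. Median supporting reads per circle were 7.58 for upstream circles and 6.75 for the others (exact permutation p = 0.125), with 8 of 12 libraries tied. Without control replicate 4 (22 against 15 reads) the mean difference was 0.273 instead of 0.833. Of upstream circles and the others, 13.9% and 14.03% were found in 2 or more libraries (exact permutation p = 0.83). Exonic circles differed more: the share in the class of 330 to under 420 bp differed by -8.57 points between upstream and exonic circles, and was lower for upstream circles in 12 of 12 libraries (exact sign-flip permutation p = 0.000488, the smallest that 12 libraries allow). That comparison was 1 of 4 circle types tried. The gap to exonic circles was -13.2 ± 5.20 points (control), -5.72 ± 4.15 (5 Gy x2) and -6.81 ± 1.14 (5 Gy x4) (SD, n = 4).

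Relative to exonic circles, upstream circles were fewer in irradiated skin than in control skin. Per 100 exonic circles under 1000 bp, there were 70.5 ± 31.1 upstream circles in control, 38.0 ± 5.57 after 5 Gy x2 and 35.5 ± 3.51 after 5 Gy x4 (SD, n = 4). The control libraries ran from 48.1 to 116, the 5 Gy x2 libraries from 34.0 to 46.3 and the 5 Gy x4 libraries from 33.0 to 40.6. Both irradiated groups lay wholly below control (exact permutation p = 0.0286 and adjusted p = 0.0935 each). Without control replicate 4, which was the highest, the control mean was 55.5, and the differences were -17.5 instead of -32.5 for 5 Gy x2 and -20.1 instead of -35.1 for 5 Gy x4. The exonic share of small circles came to 3.06% ± 0.877 for control, 4.46% ± 0.439 for 5 Gy x2 and 4.76% ± 0.249 for 5 Gy x4 (exact p = 0.0286 and adjusted p = 0.0935 each against control), with control replicate 4 at 1.76%.

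The 2 sides of genes held similar numbers of circles. Upstream circles made up 60.8%, 51.8%, 57.5% and 54.5% of upstream plus downstream circles in the control libraries. They made up 53.2%, 50.6%, 53.8% and 49.7% in the 5 Gy x2 libraries, and 53.8%, 51.2%, 51.0% and 53.4% in the 5 Gy x4 libraries. The share was above 50% in 11 of 12 libraries, with a mean of 53.4% ± 3.13 (SD, n = 12; two-sided permutation p = 0.000977 by exact sign flips against 50%). A circle in both flanks is placed in 1 class, and the order of the classes is not known. Without any preference of the circles the share need not be 50%, so this p does not show that they favour the upstream side. The group means were 56.1% ± 3.90, 51.9% ± 1.97 and 52.3% ± 1.43, and neither irradiated group differed from control beyond the spread (exact permutation p = 0.114 each).

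**Figure D3:**
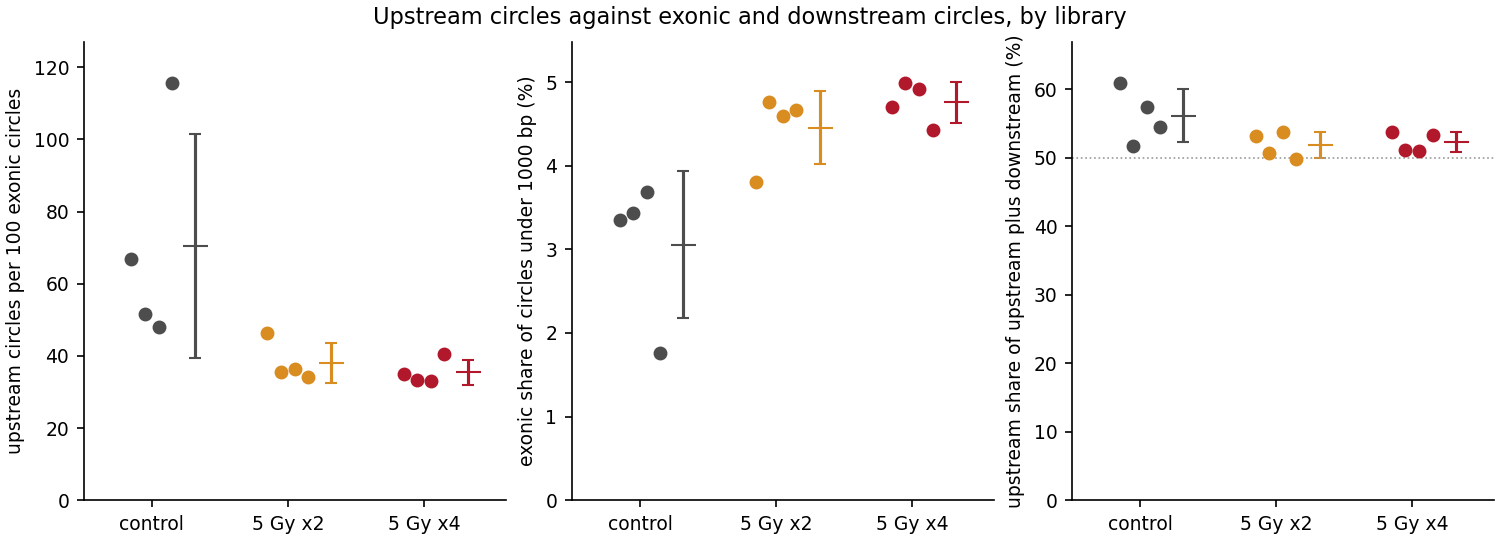
Upstream circles per 100 exonic circles (left), exonic share of circles under 1000 bp in percent (middle) and upstream share of upstream plus downstream circles in percent (right), 1 point per library, with the group mean and SD beside the points (n = 4). The dotted line marks 50%, and both irradiated groups lie below the control libraries in the left panel and above them in the middle panel.

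The upstream share of small circles differed between chromosomes. Upstream circles made up 5.41% on chromosome Y (4 of 74 circles), 2.78% on chromosome 10, 2.51% on chromosome 12, 2.22% on chromosome 3 and 2.15% on chromosome 1, but 1.20% on chromosomes 2 and 18. Windows of 10 Mb were ranked by the number of genes that had a listed circle of any class but between genes, upstream circles included. The ranking thus used the circles themselves, so a higher upstream share in the top windows may be partly built in. The top 73 of 292 windows, called gene-dense here, held 53.2% ± 7.41 of a control library's upstream circles, 47.3% ± 4.36 of a 5 Gy x2 library's and 45.2% ± 2.45 of a 5 Gy x4 library's (exact permutation p = 0.229 and 0.0857 against control). Within those windows upstream circles were 3.14% ± 0.538 (control), 2.82% ± 0.208 (5 Gy x2) and 2.76% ± 0.165 (5 Gy x4) of small circles, and in the other windows it was 1.35% ± 0.111, 1.23% ± 0.121 and 1.27% ± 0.0853. In neither part did a group differ from control beyond the spread between libraries (exact p = 0.286 for both groups in gene-dense windows, 0.171 and 0.229 in the others). Of the 3836 upstream circles, 224 lay upstream of 2 or 3 genes at once, as between neighbouring genes on opposite strands. The circles of Fgf21, a fasting hormone, and Fut1, a fucosyltransferase, are of this kind.

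Recurrence separated control from irradiated libraries, for upstream circles as for other small circles. Of the upstream circles of a control library, 26.4% ± 6.53 were also found in another library of the study, against 8.58% ± 2.83 for 5 Gy x2 and 6.68% ± 2.55 for 5 Gy x4 (SD, n = 4; exact permutation p = 0.0286 and adjusted p = 0.0935 each). The control libraries lay between 20.9% and 35.8% and no irradiated library exceeded 12.4%. The other small circles gave 18.3% to 39.7% in control libraries, 6.5% to 14.8% in 5 Gy x2 libraries and 5.53% to 7.72% in 5 Gy x4 libraries. The share is taken over all upstream circles of a library, and these were fewest in control; the part of that number in the difference was not tested. No pair of libraries shared more than 12 upstream circles, and the largest overlap was 17.9% of the smaller library, between control replicates 2 and 4. The hconf share averaged 37.7% ± 4.93 (control), 27.5% ± 3.33 (5 Gy x2) and 27.6% ± 2.45 (5 Gy x4) (exact p = 0.0571 and 0.0286 against control, adjusted p = 0.129 and 0.0935).

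The most recurrent single circle lay upstream of Cers3 (ENSRNOG00000013823), whose enzyme makes the very long chain ceramides of the epidermal water barrier. This circle of 421 bp (rn6 chr1:127646463-127646883) was found in 9 of 12 libraries, 3 in each group. It had 17, 0, 24 and 24 supporting reads in control replicates 1 to 4, 44, 15, 30 and 0 in 5 Gy x2, and 24, 64, 0 and 18 in 5 Gy x4. The groups overlapped fully, with 1 library of each group at 0. Its label is lconf.

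The region found in most libraries lay upstream of Emilin1 (ENSRNOG00000008246), which encodes a glycoprotein of elastic fibres. There, 7 overlapping circles of 57 to 971 bp covered rn6 chr6:26829346-26831062, and 11 of 12 libraries held at least 1 of them. Supporting reads over the 7 circles were 30, 51, 138 and 238 in control, 78, 3, 0 and 48 in 5 Gy x2, and 81, 17, 4 and 124 in 5 Gy x4. The groups overlapped, and 5 Gy x2 replicate 3 was the library with none. The circle of 777 bp was found in 6 libraries, 2 per group, with 307 reads in all, the most of any upstream circle. The circle of 207 bp was also found in 2 libraries per group, and the circle of 971 bp had 138 and 118 reads in control replicates 3 and 4 and none elsewhere.

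**Figure D4:**
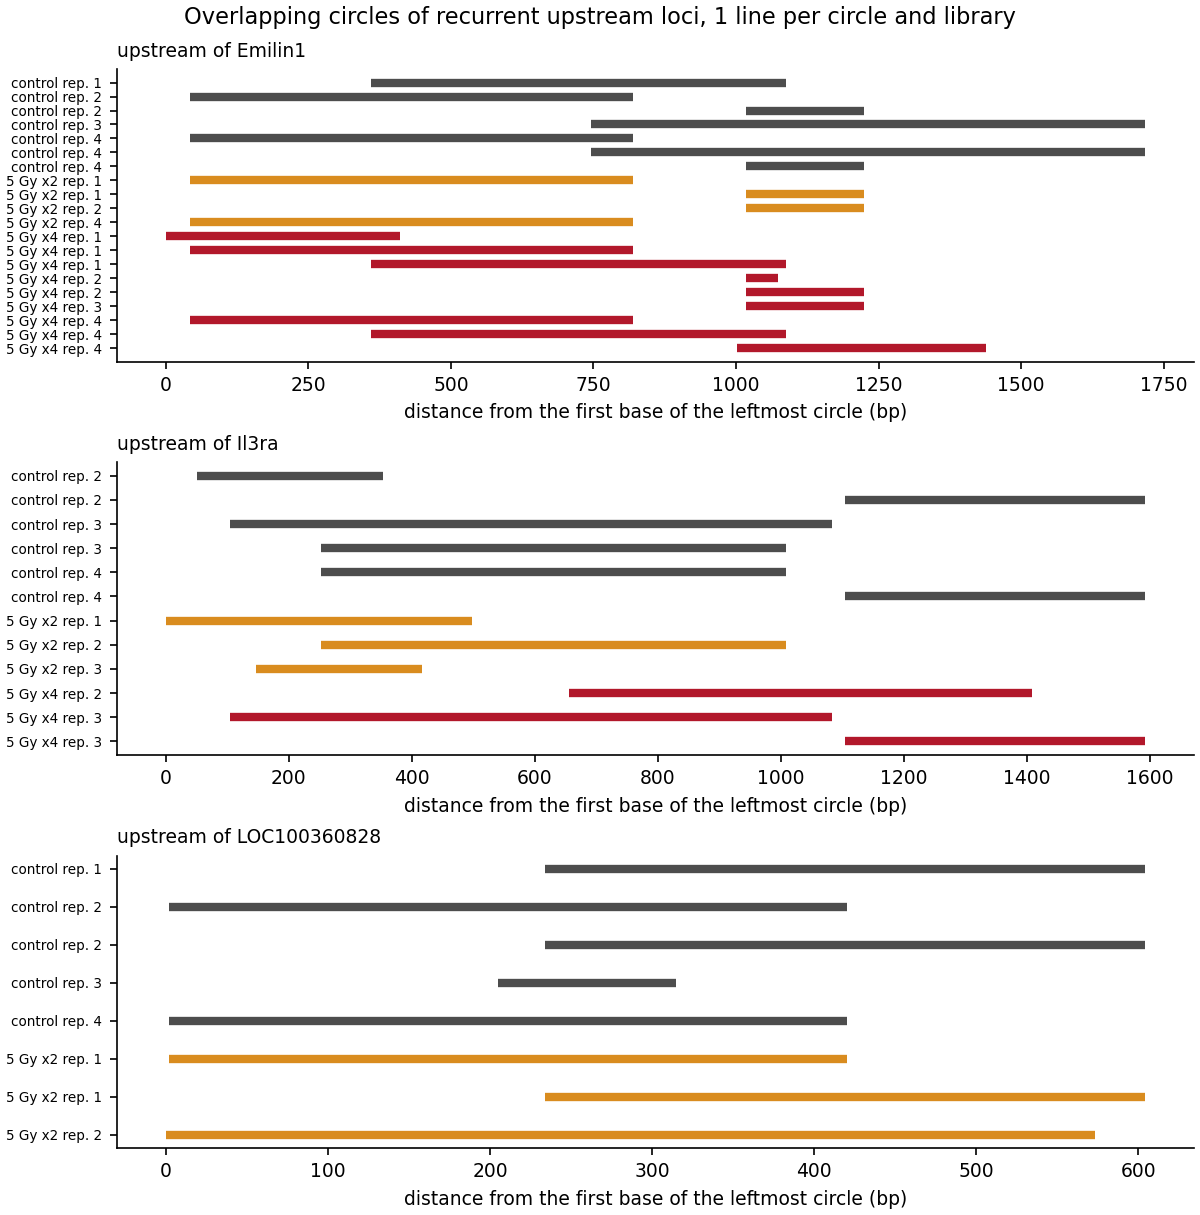
Circles of 3 recurrent upstream regions, each line being 1 circle in 1 library, in bp from the first base of the leftmost circle, coloured by group (grey control, orange 5 Gy x2, red 5 Gy x4). The 7 Emilin1 circles share several end points between libraries and groups, and the circles upstream of LOC100360828 come from control and 5 Gy x2 libraries. Other recurrent regions, not drawn here, also miss a group, and regions were not tested between groups.

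Other regions of overlapping circles were found in fewer libraries. Upstream of Il3ra, the alpha chain of the interleukin 3 receptor, 7 circles of 269 to 978 bp were found in 8 libraries, with 0, 47, 98 and 61 reads in control, 17, 4, 11 and 0 in 5 Gy x2, and 0, 12, 17 and 0 in 5 Gy x4. Upstream of LOC100360828, 4 circles were found in all 4 control libraries (2, 30, 24 and 9 reads), in 5 Gy x2 replicates 1 and 2 and in no 5 Gy x4 library. Of its 315 reads, most came from 5 Gy x2 replicate 1. Regions were not tested between groups, and how often they miss a group was not counted. Other regions found in 4 or more libraries also missed an irradiated group. Those of Cbr4 and Dazap2 missed 5 Gy x4, and those of Crygc and Utrn missed 5 Gy x2. Sp7, a transcription factor of bone-forming cells, had 4 upstream circles in 6 libraries, 2 per group, and Igsf23 had 4 in 6 libraries, of which 3 were control. In all, overlapping circles joined into 3666 regions, of which 137 held 2 or more circles and 27 were found in 4 or more libraries.

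The other recurrent circles differed in which libraries held them. Fmod encodes fibromodulin, a proteoglycan that binds collagen fibrils, and its circle of 484 bp (rn6 chr13:50872450-50872933) had 28, 22, 18 and 0 reads in control, 0, 3, 0 and 0 in 5 Gy x2, and 10, 0, 0 and 0 in 5 Gy x4. Control replicates 1 to 3 were thus the highest, and the groups overlapped at 0. Cbr4 encodes a carbonyl reductase of mitochondrial fatty acid synthesis, and its circle of 123 bp (rn6 chr16:31974180-31974302) had 108 reads in control replicate 4, 38, 4 and 3 in 5 Gy x2 replicates 1, 3 and 4, and none in any 5 Gy x4 library. Dazap2, which encodes a small proline-rich protein, had a circle of 512 bp with 2 and 24 reads in control, 25 and 4 in 5 Gy x2 and none in 5 Gy x4. Lgals3, the gene of galectin-3, had a circle of 302 bp with 6 reads in each of 2 control libraries, 2 in 5 Gy x2 and 11 in 5 Gy x4. Tamm41, needed for cardiolipin synthesis, had one of 270 bp with 3 and 7 reads in control, 4 in a 5 Gy x2 library and 11 in a 5 Gy x4 library. The circles of Ttll2 (381 bp), a tubulin-modifying enzyme, Crygc (813 bp), a lens crystallin, and Cby2 (339 bp) were each in 4 libraries. The circle of LOC100912266 (427 bp) was in 6 libraries, and those of the genes ENSRNOG00000059711 (328 bp) and ENSRNOG00000051835 (854 bp), which the table leaves without a symbol, were in 4 each. Among circles found in 1 library, the best supported lay upstream of Utrn, the gene of the dystrophin relative utrophin, with 153 reads in control replicate 3.

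**Figure D5:**
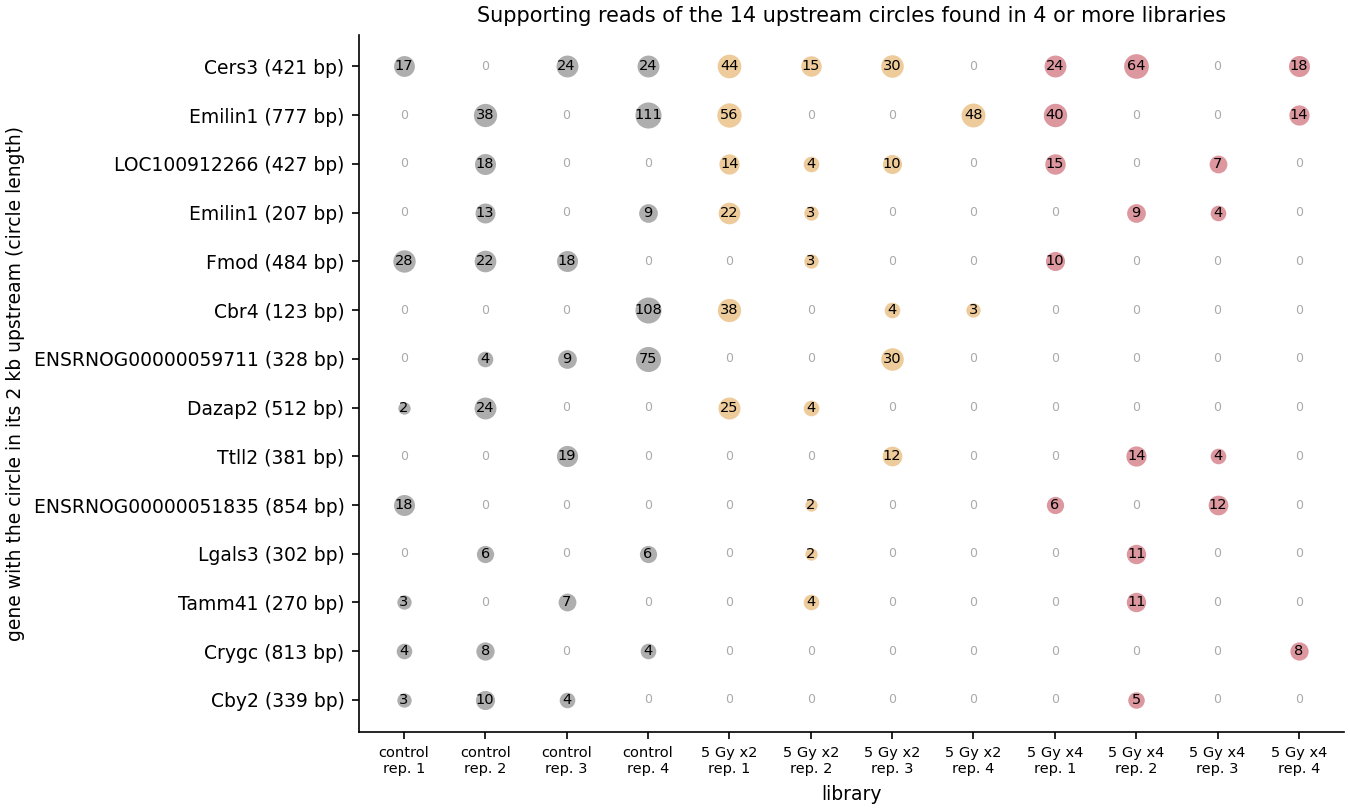
Supporting reads of the 14 upstream circles found in 4 or more libraries (rows, with gene and circle length) in each of the 12 libraries (columns), with the number printed and the point area growing with its logarithm. The Cers3 circle is in 9 libraries. The circles of Cbr4, Dazap2 and ENSRNOG00000059711 have 0 reads in every 5 Gy x4 library, and those of Cby2 and Crygc have 0 in every 5 Gy x2 library. None of these circles was called by edgeR, and how often other recurrent circles miss a group was not counted.

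Supporting reads were tested in 943 circles of any type found in 4 or more libraries, of which these 14 were upstream. In 5 Gy x2 against control, edgeR's quasi-likelihood test with Benjamini-Hochberg adjustment called 0% of the 943 circles and 0 of the 14 upstream circles. In 5 Gy x4 against control it called 0.106% (1 circle, lower in 5 Gy x4), and in 5 Gy x4 against 5 Gy x2 also 0.106% (1 circle). No upstream circle was called in either. At an unadjusted p under 0.05 there were 2, 3 and 3 upstream circles in the 3 comparisons and 129, 120 and 137 of all tested circles, and DESeq2 called 1, 4 and 5 circles, none of them upstream. The lowest adjusted p of an upstream circle by edgeR was 0.321 (Cby2) in 5 Gy x2 against control, 0.325 (Cbr4, Dazap2 and ENSRNOG00000059711) in 5 Gy x4 against control and 0.335 (the same 3 circles) between the irradiated groups. The fit gave 12 of the 14 upstream circles a lower level in 5 Gy x2 than in control and 9 a lower level in 5 Gy x4, beside 59.7% and 61.9% of all tested circles. Some of the 12 were close to no change, with log2 fold changes of -0.0189 (Ttll2), -0.026 and -0.0871 (Emilin1). The 2 largest, -5.08 (Cby2) and -5.04 (Crygc), belonged to circles without reads in 5 Gy x2. These circles are not replicates, and their number was not tested. All tested circles were picked by presence in 4 or more libraries, and circles of control libraries recurred more often. A lean towards lower levels in irradiated skin may therefore be partly built in. The common dispersion of the fit was 6.17, a very wide spread. At this spread even log2 fold changes of -7.32 (Cbr4) and -7.04 (ENSRNOG00000059711) in 5 Gy x4 against control were not called. The lack of calls therefore does not show that these circles were unchanged.

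The upstream circles belonged to 3606 genes, of which 459 had one in control skin, 1337 after 5 Gy x2 and 2141 after 5 Gy x4, and 26 had one in all 3 groups. Most genes, 3203, had a single upstream circle. Upstream circles from 4 or more libraries were found in 32 genes. Of the 3606 genes, 2238 (62.1%) also had an exonic or intronic circle, which is 15.1% of the 14788 genes with such circles. Of the 3238 genes with downstream circles, 63.7% had an exonic or intronic one. Genes with circles on both sides numbered 515, 14.3% of the genes with upstream circles and 15.9% of those with downstream ones.

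Gene groups of skin, radiation response and repair were read against all protein-coding genes, of which 2725 of 23154 (11.8%) had an upstream circle: 1.46% had one in control, 4.40% had one in 5 Gy x2 and 6.95% had one in 5 Gy x4. These are counts of genes with a circle at least once, with no test, and they grow with the number of circles in a group. Of 51 DNA repair genes 10 had one: Xrcc5, whose product binds broken DNA ends, in control replicate 3 and 5 Gy x4 replicate 4, Rad51b, a recombination protein, in 5 Gy x2 replicate 3 (34 reads), and Ogg1, which removes oxidized guanine, in 5 Gy x2 replicate 1 (24 reads) among them. Of 28 genes of the DNA damage and p53 response 1 had an upstream circle, Plk3, a stress-responsive kinase, with 9 reads in 5 Gy x2 replicate 3. Of 47 oncogenes and growth factor receptor genes 9 had one, including the cyclin genes Ccnd2 (2 libraries) and Ccnd3 (control replicate 4). No gene of these 3 lists had an upstream circle in more than 2 libraries.

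Among genes of the skin, 5 of 37 epidermal keratinocyte genes (13.5%) had an upstream circle, beside 11.8% of all protein-coding genes. None had one in control, where 1.46% of all protein-coding genes did, so 0 of 37 is close to that share. Krt10, a keratin of the upper epidermis, had 9 reads in 5 Gy x2 replicate 3 and 6 in 5 Gy x4 replicate 2, Lor, the gene of the cornified envelope protein loricrin, 5 and 1 reads in 5 Gy x2 replicate 3 and 5 Gy x4 replicate 3, and Dsg3, a desmosomal cadherin, 36 reads in 5 Gy x2 replicate 3. Of 40 hair follicle and sebaceous gland genes 5 had one, among them Krt27 and Krt81, keratins of the hair, and Lgr5, a marker of hair follicle stem cells. Of 45 extracellular matrix and fibrosis genes 7 had one, among them Col7a1 (4 reads in 5 Gy x4 replicate 3), the collagen of anchoring fibrils, the gelatinase gene Mmp9 (3 reads in 5 Gy x2 replicate 2) and Smad4 (3 reads in 5 Gy x4 replicate 1), a mediator of TGF-beta signals. Of 40 inflammation genes 5 had one, among them the chemokine gene Cxcl1 (3 reads in control replicate 1 and 9 in 5 Gy x4 replicate 2), the cytokine gene Il1b (3 and 1 reads in 2 irradiated libraries) and Nfkb2 (24 reads in 5 Gy x2 replicate 3). Of 30 immune cell genes 4 had one, including the T cell genes Cd8a and Cd3e and the perforin gene Prf1. Of 27 skeletal muscle genes 3 had one: Myh4, Casq1 and Tnnt3, with 1 or 2 reads each. Most of these circles were thus single circles of a single library.

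Larger gene families gave shares on both sides of that of all protein-coding genes. Of 75 ribosomal protein genes, 13 (17.3%) had an upstream circle. None had one in control skin, 3 (4%) had one in 5 Gy x2 and 12 (16%) had one in 5 Gy x4. The shares of all protein-coding genes were 1.46%, 4.40% and 6.95%. Rpl34 had 2 upstream circles, both in 5 Gy x4 replicate 3. Of 65 histone genes 6 (9.23%) had one, all in 5 Gy x4, where 6.95% of all protein-coding genes had one. The histone genes H2ac20 and Hist2h2be had the same circle. Olfactory and vomeronasal receptor genes, which serve the detection of odours and pheromones, had one in 188 of 1453 (12.9%), with 16, 71 and 112 genes in the 3 groups, and zinc finger genes in 42 of 414 (10.1%), with 4, 12 and 30. The lists of microRNA genes and of small nuclear, nucleolar and ribosomal RNA genes held 2 and 1 protein-coding RefSeq genes, none with an upstream circle. Of the genes with an upstream circle that matched RefSeq, 99.6% were protein-coding. RefSeq has 10879 long noncoding RNA genes, of which 2 were among them, and 1564 small nucleolar RNA and 766 transfer RNA genes, of which none was. How many such genes the deposited annotation holds, or how many can be matched by symbol, is not known. The 99.6% therefore does not show that circles favour protein-coding genes.

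RefSeq promoters were found for 2242 of the genes with upstream circles. Promoters of protein-coding genes with an upstream circle had a mean GC content of 57.1% ± 11.7 (SD, n = 2239 genes), against 54.9% ± 11.8 in 16766 genes without one. Their CpG observed over expected ratio, which is 1 where CG occurs as often as its bases predict, was 0.584 against 0.531, and GGGCGG was found in 48.9% against 42.4%. TATAAA was found in 11.6% against 13.3%, and CCAAT in 37.0% against 38.6%. The genes without one may include genes that the deposited annotation lacks or whose symbols were not matched. The part of this in the differences was not tested. Genes with downstream circles (57.8% GC), exonic circles (59.5%) and intronic circles (59.7%) had promoters at least as rich in GC. The CpG ratio averaged over the promoters of a library was 0.547 ± 0.0161 (control), 0.565 ± 0.0251 (5 Gy x2) and 0.593 ± 0.0191 (5 Gy x4) (SD, n = 4), and the 5 Gy x4 libraries lay wholly above control (exact permutation p = 0.0286, adjusted p = 0.0935). The GC content did not separate the groups, at 57.9% ± 1.31, 56.5% ± 0.662 and 57.2% ± 0.962 (exact p = 0.114 and 0.514 against control). Both averages rest on few circles in control: 56, 91, 113 and 38, against 213, 449, 464 and 214 in 5 Gy x4.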

How the data were processed

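Circular DNA of 12 rat back skin libraries was listed by the authors in 1 table per library, deposited as counts of supporting reads per circle (split reads plus discordant pairs), without normalization. Per the submitters' processing notes, BWA, Picard and bedtools were used with the build rn6. How circles were called and merged is not given in the sources used here. Starts are printed counted from 1. For 2 upstream circles (Fmod and Il3ra) the deposited total exceeds the sum over libraries.

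Members, gene lists and measures were chosen with earlier results of these data known. Group means were compared with two-sided exact permutation tests over 70 splits in Python 3.11.15 (numpy 2.4.6, scipy 1.17.1, pandas 2.3.3), with Benjamini-Hochberg adjustment over 18 planned and 36 further tests. Circles in 4 or more libraries were tested with edgeR 4.0.16 in R 4.3.3 (TMM, quasi-likelihood, all 12 libraries in 1 fit), with DESeq2 1.42.0 as an alternative. The tests were tested on simulated data. Overlapping circles were counted separately, with merging as an alternative chosen after seeing the data, as was leaving out each library in the further and within-library tests. Genes were matched to RefSeq by symbol or synonym (2738 of 3119 with a symbol).

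Named were up to 12 circles found in most libraries, 10 genes with circles from most libraries, 5 circles with most reads, the 6 circles nearest 1000 bp, and up to 3 members per gene list, of which some are not reported here. Crygc, Cby2 and the shortest circle fall outside this rule and were chosen after their values were seen. The distance of a circle from the gene start was planned and not analysed here, because no rn6 gene starts were at hand. Replicate numbers are shared between groups, but the correlations of same-numbered libraries over 286 windows ran from -0.115 to 0.34, so the libraries were not treated as pairs.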

Additional observations from a re-analysis of the deposited data

Results flagged for a closer look

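Chance flags about 1 in 20 groups of 4 libraries, and 4 values stood apart from the other 3 of their group here. The share of upstream circles that lie upstream of several genes was 6.34% in 5 Gy x2 replicate 2, above the other 5 Gy x2 libraries. The mean GC content of promoters with an upstream circle was 59.8% in control replicate 4 and 57.5% in 5 Gy x2 replicate 3, each above the rest of its group. The value of control replicate 4 rests on 38 circles and that of 5 Gy x2 replicate 3 on 282. The exonic share of circles under 1000 bp was 1.76% in control replicate 4, below the other control libraries. Control replicate 4 also had the fewest upstream circles (67) and the lowest share of them between 330 and 420 bp (14.9%).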

How the results depend on the processing

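A result is said to pass here at an unadjusted exact p under 0.05. For 4 libraries against 4, this is the level at which the groups lie wholly apart. A within-library test can pass without all 12 libraries going the same way. In 171 alternatives other than leaving out 1 library, 117 were counted as unchanged. For differences this means the same direction and side of the threshold, and for edgeR a similar number of called circles. The 117 overstate stability, because the replicate block, described next, could not move a result that had not passed across the threshold. The replicate block, an exact sign-flip test of same-numbered libraries, cannot go below 0.125, so the 6 passing differences could not pass under it, with unchanged values of 420.75 circles, -0.277 share points, 36.5 and 36.1 points of the 330 to under 420 bp share, and 44.6 and 45.8 bp of median length. Leaving out 1 library lowers the design to 3 against 4, where the smallest exact p is 0.0571, so no result could pass: the number differed from control by 167 to 292 in 5 Gy x2 and 357 to 484 in 5 Gy x4, and between doses by 128 to 272. The share differed by -0.338 to -0.18 in 5 Gy x2, -0.334 to -0.176 in 5 Gy x4 and -0.0349 to 0.0321 between doses. The flank share ran from -5.74 to -2.72, -5.27 to -2.25 and -0.231 to 1.12, the 330 to under 420 bp share from 31.3 to 39.7, 30.8 to 39.2 and -1.21 to 1.01, the median length from 36.4 to 52.4, 37.5 to 53.5 and -0.0417 to 2.33 bp, and the share of reads from -0.334 to -0.0723, -0.274 to -0.0127 and 0.00219 to 0.103. The edgeR calls were 0 to 1 in each comparison.

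The lower upstream share of 5 Gy x2 no longer passed at 2 or more reads (-0.279), at 5 or more reads (-0.125), with label hconf (-0.0509), within 330 to under 420 bp (-0.106), at other lengths (-0.322), without chromosome 12 (-0.26), in gene-dense windows (-0.318), in other windows (-0.123), with circles of all lengths (-0.231), in the common length mix (-0.118) and drawn to equal reads (-0.287). The cause was not tested. The higher number in 5 Gy x4 no longer passed when divided by supporting reads (168.5). At other lengths alone, the share difference of 5 Gy x4 (-0.297), the flank share of 5 Gy x2 (-4.89) and the flank share between doses (2.64) passed. The share difference between doses, near 0, changed sign at 5 or more reads (-0.0149), with hconf (-0.0553), within 330 to under 420 bp (-0.0086), without chromosome 12 (-0.00503), in gene-dense windows (-0.0637), in the common mix (-0.00275), drawn down (-0.0153) and with overlapping circles counted once (-0.00647), the last chosen after seeing the data. Other differences that had not passed changed sign too. At 5 or more reads these were the flank share (-0.858) and median length (-0.875) between doses. With hconf they were the flank share of 5 Gy x2 (1.17) and, between doses, the flank share (-3.22), the 330 to under 420 bp share (4.53), the median length (-1.75) and the read share (-0.00391). Within 330 to under 420 bp they were the flank share between doses (-0.505) and the read share of 5 Gy x2 (0.261) and 5 Gy x4 (0.36). Against exonic and intergenic circles of the same library, the 330 to under 420 bp share passed (-8.57 and -2.16), the median length against intronic circles did not (-3.21), and recurrence changed sign against downstream, exonic and intergenic circles (0.414, 2.49 and 0.374). The count of called circles in 5 Gy x4 against control was 0 with circles in 3 or more or 6 or more libraries, and that between doses was 0 under these filters, with library size alone and with the replicate block; DESeq2 called 1, 4 and 5. Circles in 1 library, 96.1% of all, allow no test of their own, and unknown sequencing depth limits every number of circles. The start-distance measure and its alternatives were not run, because no rn6 gene starts were at hand.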
